A study of Mus musculus with 18 samples.

Results

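The effect of Nur77 loss was read in bone marrow-derived macrophages (BMM) 8 h after lipopolysaccharide (LPS). BMM are macrophages grown in culture from bone marrow cells, here in medium conditioned by L929 fibroblasts and with no sorting step given in the sources used here. The comparison sets the 3 arrays of LPS-treated Nur77-KO BMM against the 3 arrays of LPS-treated WT BMM, which are 6 of the 18 arrays of the series. The Nur77-KO cells come from mice without a functional Nr4a1 gene, the WT cells from mice that carry it, and both are of the C57BL/6 strain and received 100 ng/ml LPS for 8 h. The other 12 arrays hold Nur77-KO and WT BMM without stimulation (0 h) or with 50 ng/ml IL-4 for 8 h, again with 3 arrays per group, and are used here only as values beside the LPS values. Sex and age are not given in the sources used here. A batch of marrow was drawn from 3 WT and 3 Nur77-KO mice, but the sources do not tie arrays to mice or to cultures. The p-values therefore rest on the spread among the arrays at hand, which may be technical. RNA was measured on Illumina MouseWG-6 v2 bead arrays, and values are the authors' normalized log2 intensities. Of the probes with 1 gene symbol, 14721 (9887 genes) were detected (detection p under 0.05) on at least 1 of the 6 arrays and were tested. In bulk RNA, fewer cells of a type and less RNA per cell cannot be told apart.

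Nur77 (NR4A1) is an orphan nuclear receptor of the NR4A family, made within minutes to hours after a stimulus as an immediate early gene product. It binds DNA as a monomer at the NGFI-B response element (NBRE) and is known to restrain the transcription factor NF-κB. LPS, a component of the outer membrane of gram-negative bacteria, is sensed by Toll-like receptor 4, and the signal runs through NF-κB and AP-1 to cytokines such as TNF, IL-1β and IL-6, while interleukin-10 and related cytokines limit the response.

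The label of the knockout could not be read from its own transcript, since the Nr4a1 probe was detected on 0 of the 18 arrays (log2 intensity 4.54 to 5.38 on the LPS arrays) and was not tested. As another check, 5 probes were called different between Nur77-KO and WT BMM both without stimulation and with IL-4, on arrays that the LPS comparison does not use. All 5 (Tia1, Tmem181a, Gfpt1, Gdf3 and Anxa4) separated the LPS-treated Nur77-KO arrays from the LPS-treated WT arrays without overlap, which held for 1767 of all 14721 probes (12%). The Tia1 probe read 5.58 to 5.87 on the Nur77-KO arrays, near the lowest values at which they detected any probe (5.574 to 5.701). The brightest Tia1 probe had log2 fold changes of 0.08 with LPS, 0.04 without stimulation and 0.07 with IL-4. An array detected 13388 to 14132 probes on Nur77-KO arrays and 11829 to 13918 on WT arrays. One array of each group stood apart from its own group. Nur77-KO replicate 1 correlated across probes at 0.957 with the other Nur77-KO arrays and at 0.967 and 0.968 with WT replicates 1 and 2, and WT replicate 3 correlated at 0.954 and 0.952 with the other WT arrays and at 0.964 with Nur77-KO replicate 1. Every call below was therefore also made without these 2 arrays. All 10 macrophage markers with a probe were detected on all 6 arrays, and their summed linear intensity was 75400 to 86200 on Nur77-KO arrays and 80500 to 88200 on WT arrays.

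After LPS, 30 of 14721 probes (0.204%) differed between Nur77-KO and WT BMM at an adjusted p under 0.05 (limma, Benjamini-Hochberg over all probes tested). They belong to 30 genes, of which 15 (0.102% of the probes tested) were higher and 15 lower in the knockout cells, and in all 30 the 3 Nur77-KO arrays lay wholly above or wholly below the 3 WT arrays. The genes higher included the iron importer Slc11a2, the lysosomal nutrient sensor Rragd, the hexosamine enzyme Gfpt1 and the thiamine transporter Slc19a2, and the genes lower included the cytokine Il19, the cytokine receptor Il6ra and the TGF-β family ligand Gdf3. Many of these probes are dim. In 17 of the 30, 1 group had no array on which the probe was detected, and 7 were detected on all 6 arrays (1 higher, 6 lower). The thresholds used in the paper are looser (a fold change of 1.4 or more at an unadjusted p under 0.05), and 1166 probes passed them (7.92%), 580 higher and 586 lower. Under median normalization this split became 113 higher and 57 lower, and the number at adjusted p under 0.05 fell to 2.

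**Figure D1:**
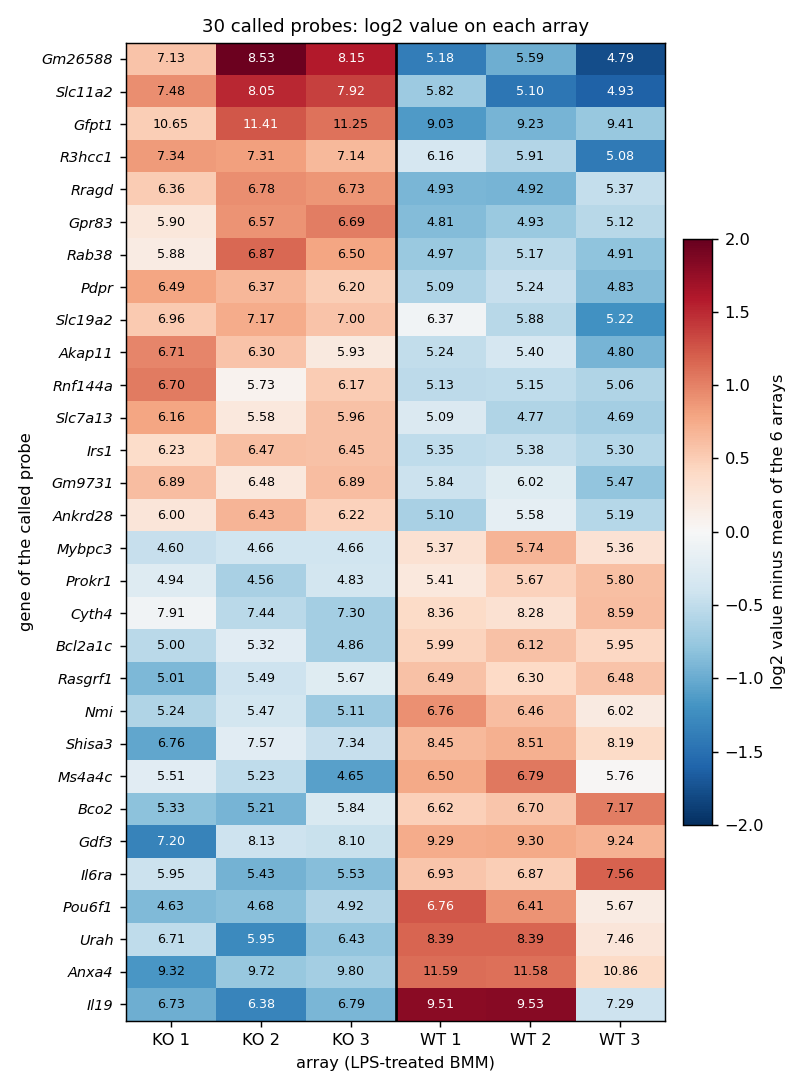
Deviation of each array's log2 intensity from the mean of the 6 LPS arrays for the 30 genes called, with Nur77-KO arrays left of WT arrays and genes ordered by log2 fold change. The groups do not overlap in any of the 30 genes, and for Il19 the third WT array (7.29) sits between the other WT arrays (9.51 and 9.53) and the Nur77-KO arrays (6.38 to 6.79).

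Interleukin-19, a cytokine of the IL-10 family, had the largest decrease among the genes called. Il19 had log2 intensities of 6.73, 6.38 and 6.79 on the Nur77-KO arrays, against 9.51, 9.53 and 7.29 on the WT arrays. The groups do not overlap, though WT replicate 3 lies much closer to the Nur77-KO arrays than to the other WT arrays. The log2 fold change was −2.14 (SE 0.41, limma, adjusted p = 0.0462), and it became −2.94 (adjusted p = 8.17e-06) without the 2 arrays that stand apart. Both fits pool the spread over all groups, and Il19 was low in the groups without LPS (means 4.73 to 5.2). The SE therefore does not describe the LPS arrays alone, where the SD was 0.22 for Nur77-KO and 1.29 for WT. A fit of only the 6 LPS arrays called 0 probes, so Il19 was not called there. Without stimulation the mean level of Il19 was 4.86 on Nur77-KO arrays and 4.73 on WT arrays. The genotype effect with LPS minus that without stimulation was −2.28 for Il19 (SE 0.58), which did not pass adjustment with all arrays (adjusted p = 0.503) and did without the 2 arrays (−3.07, adjusted p = 0.000119). On the only slide that held both groups, Nur77-KO replicate 3 was 0.50 below WT replicate 3 (log2 fold change −0.50).

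The other cytokines were not called. Of 23 cytokines tested, 1 was called (Il19), and 1 was higher and 5 were lower by the paper's thresholds, which 747 of all 9887 genes passed with 1 probe a gene (7.56%). Il10, which encodes the cytokine that dampens macrophage activation, had log2 intensities of 8.35, 8.52 and 8.90 on the Nur77-KO arrays and 9.80, 10.06 and 9.16 on the WT arrays. These arrays do not overlap, and the log2 fold change of −1.08 (SE 0.32) had an adjusted p of 0.228 by limma. Il6 measured 9.68, 10.63 and 10.35 on the Nur77-KO arrays and 11.46, 11.33 and 9.82 on the WT arrays, where WT replicate 3 lies among the Nur77-KO arrays (log2 fold change −0.65, SE 0.33). The early cytokines Tnf and Il1b had log2 fold changes of 0.30 (SE 0.28) and −0.27 (SE 0.40), and Csf3, the granulocyte growth factor, one of −0.83 (SE 0.31). Ifng, the gene of interferon-γ, a product mainly of T and NK cells, had 8.20, 7.52 and 7.28 on the Nur77-KO arrays and 6.36, 5.61 and 7.05 on the WT arrays (log2 fold change 1.33, SE 0.30, adjusted p = 0.115). The summed level of T cell and NK cell markers, of which Ifng is 1, was 634 to 698 on Nur77-KO arrays and 492 to 538 on WT arrays. Because it contains Ifng, this sum is not separate from the Ifng values. Cd8b1, the only marker detected on all 6 arrays, overlapped between the groups. It read 6.64, 7.79 and 7.58 on the Nur77-KO arrays and 7.52, 7.27 and 6.05 on the WT arrays. The defining markers Cd3d, Cd3g, Cd4, Cd8a, Ncr1, Klrb1c and Nkg7 were detected on none of the 6 arrays, and 4 of the 11 markers with a probe were detected on any.

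Slc11a2, the divalent metal transporter that carries iron into the cytosol, gave the smallest adjusted p. Its probe read 7.48, 8.05 and 7.92 on the Nur77-KO arrays, against 5.82, 5.10 and 4.93 on the WT arrays. No WT array came near a Nur77-KO array, and the probe was detected on all 3 Nur77-KO arrays and on 1 WT array. Slc11a2 rose by 2.53 on the log2 scale (SE 0.25, limma, adjusted p = 0.000591). The other probes of Slc11a2, detected on all 6 arrays, had log2 fold changes of 0.50 and 0.39 (adjusted p = 0.377 and 0.513) and are brighter, so the size of the difference depends on the probe. Without the 2 arrays that stand apart the log2 fold change of the called probe was again 2.53.

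Gfpt1, the enzyme that starts hexosamine synthesis from fructose 6-phosphate, read 10.65, 11.41 and 11.25 on the Nur77-KO arrays and 9.03, 9.23 and 9.41 on the WT arrays. All 6 arrays detected it, and it was the only called gene with a higher level for which that holds. Its log2 fold change of 1.89 (SE 0.27, adjusted p = 0.00699) stood beside 2.22 without stimulation and 2.07 with IL-4. Of the 7 hexosamine and O-GlcNAc genes tested, 6 were above and 1 below 0, with a median log2 fold change of 0.32 against 0.01 over all genes, and only Gfpt1 was called. Nagk and Amdhd2, which phosphorylate acetylglucosamine and take off its acetyl group, had log2 fold changes of 0.32 (SE 0.11) and 0.40 (SE 0.14) on their brightest probes, while the other probes of Nagk gave 0.07, 0.10 and 0.09 and the other probe of Amdhd2 gave 0.05.

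Rragd encodes RagD, a GTPase that reports amino acid supply to the kinase mTOR at the lysosome. It read 6.36, 6.78 and 6.73 on the Nur77-KO arrays and 4.93, 4.92 and 5.37 on the WT arrays. None of the WT arrays detected the probe after LPS, although unstimulated WT BMM had a mean of 7.30. Rragd rose by 1.55 on the log2 scale (SE 0.18, limma, adjusted p = 0.00178), a difference of at least 1.77-fold. This bound, here and below, sets the mean of the group in which the probe was detected against, for each array of the other group, the higher of the probe's own value and the lowest value at which that array detected any probe. Of 24 lysosomal and nutrient-sensing genes tested, 19 were above 0 and 5 below, with a median of 0.16, and Rragd was the only one called. Flcn, which encodes folliculin, a protein that acts on the Rag GTPases, had a log2 fold change of 0.45 (SE 0.12, adjusted p = 0.198). Ctsl, the lysosomal protease cathepsin L, had 1.37 (SE 0.33, adjusted p = 0.146), and this became 1.91 (adjusted p = 0.0157) without the 2 arrays.

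**Figure D2:**
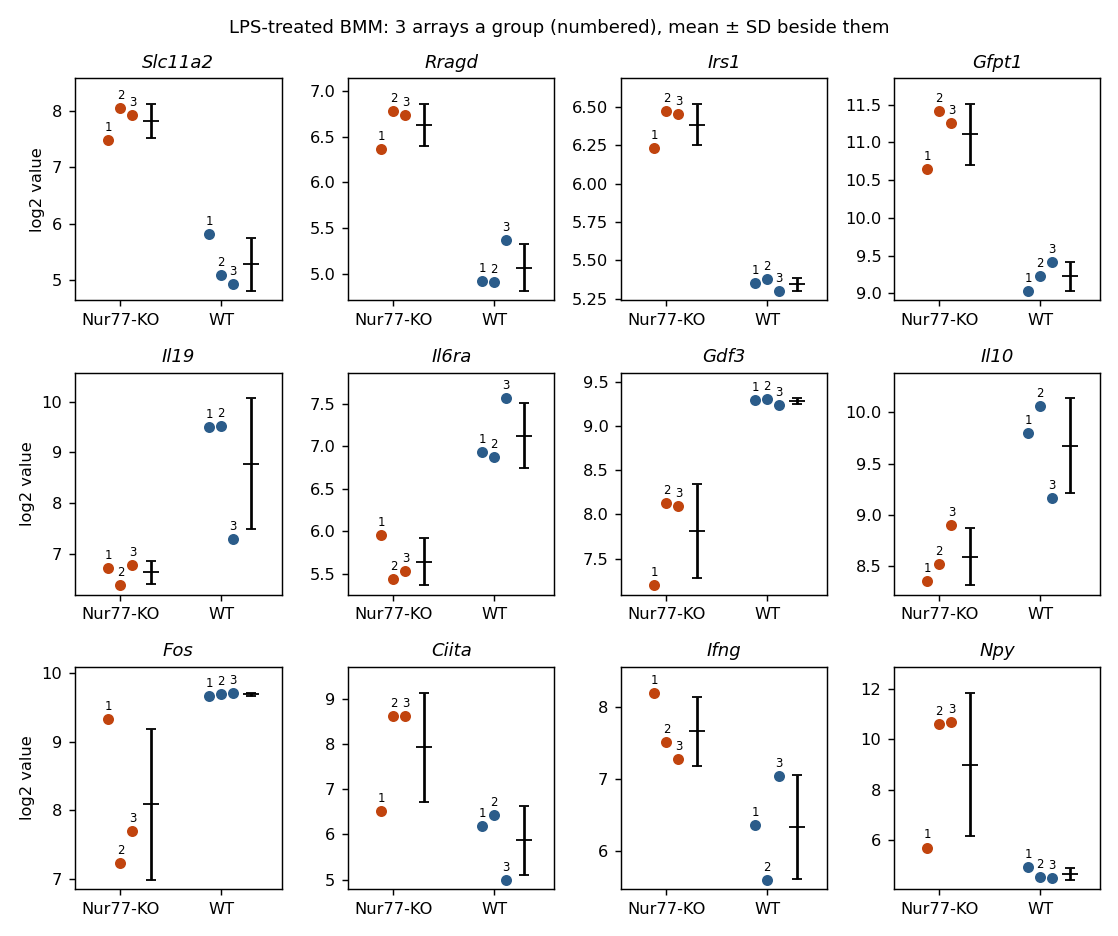
Log2 intensity on each LPS array (numbered points) with the group mean ± SD beside them for 12 genes, Nur77-KO left and WT right in each panel. Slc11a2, Rragd, Irs1, Gfpt1, Il19, Il6ra and Gdf3 were called, while Il10, Fos, Ciita, Ifng and Npy do not overlap between the groups and were not called.

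Irs1, the adaptor that links the insulin and IGF receptors to PI3-kinase, read 6.23, 6.47 and 6.45 on the Nur77-KO arrays and 5.35, 5.38 and 5.30 on the WT arrays. The spread within each group was small (SD 0.13 and 0.04), and no WT array detected the probe. It rose by 1.04 on the log2 scale (SE 0.16, adjusted p = 0.00996), at least 1.50-fold. Without stimulation the same probe had a log2 fold change of −0.42 and with IL-4 of −0.13. The difference of the genotype effect between LPS and no stimulation was 1.46 (SE 0.22), the smallest adjusted p among the called genes for that difference (limma, 0.119), and it passed without the 2 arrays (1.51, adjusted p = 0.0257). The other 15 insulin and IGF signalling genes tested were not called.

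Gm26588, a predicted gene on chromosome 6, had 7.13, 8.53 and 8.15 on the Nur77-KO arrays and 5.18, 5.59 and 4.79 on the WT arrays, none of them detected in WT. It rose by a log2 fold change of 2.75 (SE 0.35, adjusted p = 0.00477), at least 4.41-fold. Its interval (chr6:88716423-88742591, GRCm38.p6) overlaps that of Mgll, the lipase that cleaves monoacylglycerols, so the gene that the probe reads is uncertain. The brighter Mgll probe had a log2 fold change of 1.2 (SE 0.29, adjusted p = 0.145), and its groups do not overlap.

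The other 10 genes called higher had log2 fold changes between 0.92 and 1.55. Membrane transporters were the thiamine carrier Slc19a2 (log2 fold change 1.22, SE 0.22, adjusted p = 0.0365) and the amino acid transporter Slc7a13 (1.05, SE 0.19, adjusted p = 0.0387, at least 1.07-fold). Rab38, a small GTPase of lysosome-related organelles, rose by 1.4 on the log2 scale (SE 0.19, adjusted p = 0.00699), at least 1.53-fold, while its brighter probe, detected on all 6 arrays, had a log2 fold change of 0.72 (SE 0.32, adjusted p = 0.454). Pdpr, the regulatory subunit of pyruvate dehydrogenase phosphatase, rose by 1.30 (SE 0.19, adjusted p = 0.00996), at least 1.47-fold. The G protein-coupled receptor Gpr83 rose by 1.43 (adjusted p = 0.00996, at least 1.51-fold) and the kinase anchor Akap11 by 1.17 (adjusted p = 0.0462, at least 1.43-fold). The ubiquitin ligase Rnf144a rose by 1.09 (adjusted p = 0.0362, at least 1.32-fold) and the phosphatase subunit Ankrd28 by 0.92 (adjusted p = 0.0362, at least 1.34-fold). No WT array detected these probes or that of Slc7a13. R3hcc1 rose by 1.55 (adjusted p = 0.00699) and the predicted gene Gm9731 by 0.98 (adjusted p = 0.0202). Slc7a13 and Akap11 were no longer called without the 2 arrays that stand apart (adjusted p = 0.0866 and 0.103).

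Gdf3 encodes a secreted ligand related to TGF-β. It read 7.2, 8.13 and 8.10 on the Nur77-KO arrays, against 9.29, 9.30 and 9.24 on the WT arrays. The WT arrays were nearly equal (SD 0.04), and Nur77-KO replicate 1 was the lowest of all. The log2 fold change was −1.47 (SE 0.19, limma, adjusted p = 0.00477), beside −1.68 without stimulation and −1.67 with IL-4. Anxa4, a calcium-dependent phospholipid-binding protein, read 9.32, 9.72 and 9.80 on the Nur77-KO arrays and 11.59, 11.58 and 10.86 on the WT arrays (log2 fold change −1.73, SE 0.25, adjusted p = 0.00777). The other probe of Anxa4, also detected on all 6 arrays, had a log2 fold change of 0.39 (SE 0.27, adjusted p = 0.668), in the opposite direction. Pou6f1, a POU homeodomain transcription factor, read 4.63, 4.68 and 4.92 on the Nur77-KO arrays and 6.76, 6.41 and 5.67 on the WT arrays. No Nur77-KO array and 2 of the 3 WT arrays detected it. Pou6f1 fell by 1.54 on the log2 scale (SE 0.26, adjusted p = 0.0221). The bound gave 1.55-fold, which is not strict because a WT array did not detect the probe.

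Il6ra, the ligand-binding chain of the IL-6 receptor, read 5.95, 5.43 and 5.53 on the Nur77-KO arrays and 6.93, 6.87 and 7.56 on the WT arrays. The probe was detected on 1 Nur77-KO array and on all 3 WT arrays. Il6ra fell by 1.48 on the log2 scale (SE 0.24, adjusted p = 0.0166), and its other probe had a log2 fold change of −0.15 (SE 0.19). Of 26 cytokine and chemokine receptors tested, Il6ra was the only one called. Without stimulation the level of Il6ra was higher in both genotypes, with means of 9.06 on Nur77-KO arrays and 9.48 on WT arrays.

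Shisa3, a membrane adaptor of a family that dampens Wnt and FGF signals in the frog, read 6.76, 7.57 and 7.34 on the Nur77-KO arrays and 8.45, 8.51 and 8.19 on the WT arrays. It fell by 1.16 (SE 0.18, adjusted p = 0.0133), and its other probe had a log2 fold change of −1.18 (SE 0.38, adjusted p = 0.262). Urah, an enzyme of urate breakdown, fell by 1.72 (SE 0.29, adjusted p = 0.0228), with 6.71, 5.95 and 6.43 on the Nur77-KO arrays and 8.39, 8.39 and 7.46 on the WT arrays. Without stimulation Shisa3 averaged 4.78 on Nur77-KO arrays and 4.81 on WT arrays, and Urah 5.44 on Nur77-KO arrays and 5.28 on WT arrays.

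The other genes called lower were mostly dim. Those with a link to inflammatory signalling were Nmi, Ms4a4c and Bcl2a1c. Nmi, an interferon-inducible partner of STAT proteins, fell by 1.14 on the log2 scale (adjusted p = 0.0387, bound 1.70-fold). Ms4a4c, a tetraspan membrane protein, fell by 1.22 (adjusted p = 0.0476, bound 1.63-fold). Bcl2a1c, an anti-apoptotic BCL2 relative, fell by 0.96 (adjusted p = 0.0222, bound 1.29-fold). Each of these probes was detected on 2 of the 3 WT arrays, so these bounds are not strict. Bcl2a1c has near-identical paralogs, and its far brighter other probe had a log2 fold change of −0.23 (SE 0.25), so its call is uncertain. Genes of small GTPase control were Rasgrf1, an exchange factor for Ras, which fell by 1.03 (adjusted p = 0.0387, at least 1.71-fold), and Cyth4, an exchange factor for ARF, which fell by 0.86 (adjusted p = 0.0462) with a log2 fold change of −0.57 for its other probe. Rasgrf1 was not called without the 2 arrays (adjusted p = 0.0719), and its other probe had a log2 fold change of 0.00. The carotenoid-cleaving enzyme Bco2 fell by 1.37 (adjusted p = 0.0202). Prokr1 and Mybpc3 were called lower (adjusted p = 0.0491 and 0.0202) on probes detected on 1 WT array and no Nur77-KO array, with WT means too close to background for a fold to be given. The brighter probe of Prokr1 had a log2 fold change of −1.10 (SE 0.43, adjusted p = 0.391).

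Across the 30 genes called, the genotype effect had the same sign without stimulation in 9 of the 15 higher and 10 of the 15 lower genes, and with IL-4 in 10 of the higher and 9 of the lower genes. Of the 30, 4 (1 higher, 3 lower) were called without stimulation as well, where 22 of the 14721 probes were called (0.149%), and 3 (1 higher, 2 lower) with IL-4, where 5 probes were called (0.034%). Gfpt1, Gdf3 and Anxa4 were called in all 3 states, and Pou6f1 with LPS and without stimulation (−1.78, adjusted p = 0.00777). A call in one state and not in another is no test of a difference between them. The test of the difference itself gave 0 probes at an adjusted p under 0.05 between LPS and no stimulation (710 at unadjusted p under 0.05) and 0 between LPS and IL-4 (758 at unadjusted p under 0.05), by limma. Over the 30 genes the adjusted p of the difference was 0.119 to 1 against no stimulation and 0.458 to 0.999 against IL-4. No array was untreated at 8 h, so the unstimulated arrays differ from the LPS arrays by time in culture as well.

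**Figure D3:**
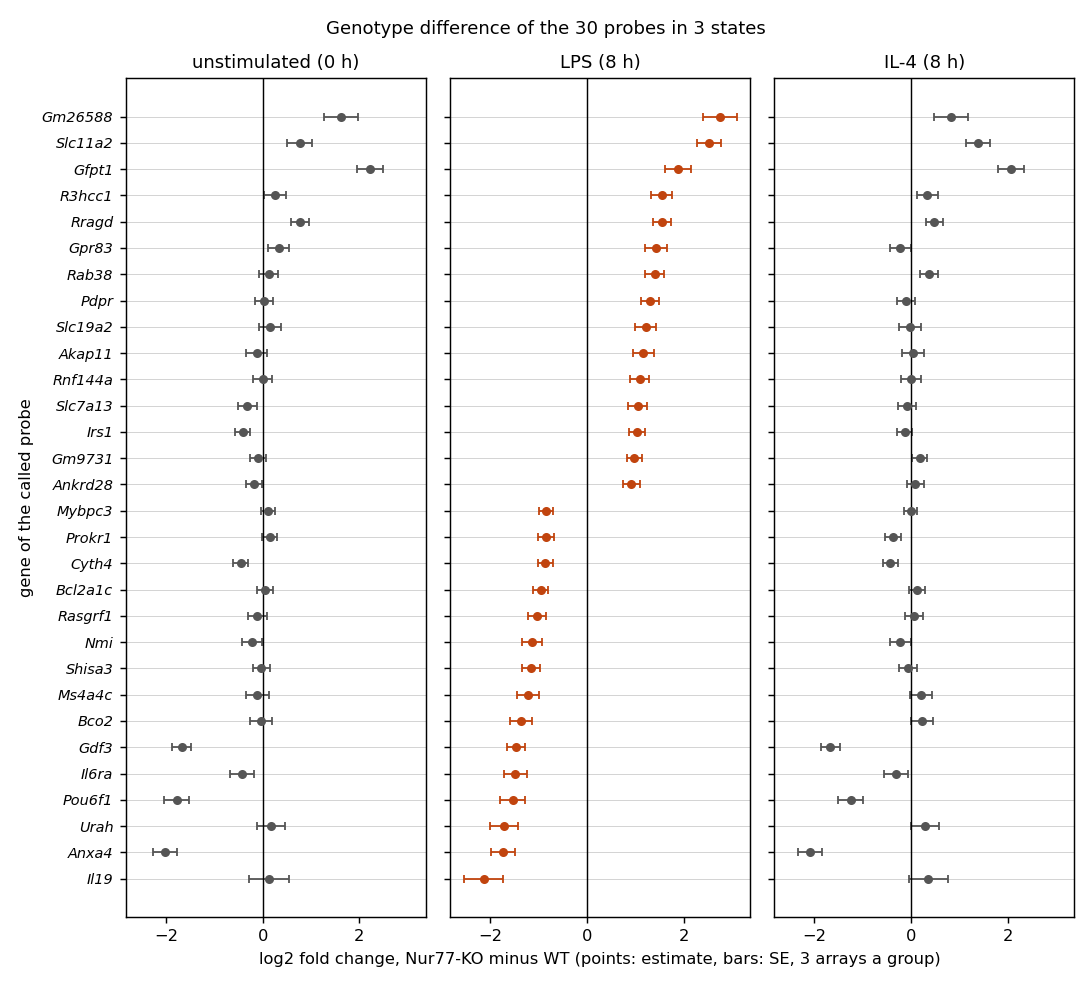
Log2 fold change of Nur77-KO over WT BMM with its SE for the 30 genes called with LPS, shown with LPS, without stimulation and with IL-4. Gfpt1 (1.89, 2.22 and 2.07), Gdf3 (−1.47, −1.68 and −1.67) and Anxa4 (−1.73, −2.02 and −2.10) keep their size across the 3 states, while Il19 lies at −2.14 with LPS, 0.13 without stimulation and 0.36 with IL-4.

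Of 28 lists of genes by function, which cover the LPS response, metabolism, matrix and growth, 23 had no member called. The 28 lists held 5 called genes of 489 tested (Il19, Il6ra, Rragd, Gfpt1 and Irs1), against 24 of all 9887 genes with 1 probe a gene (0.243%). Over all genes 5094 were above 0 and 4793 below, and 370 (3.74%) were lower by the paper's thresholds. Of 26 NF-κB subunits, inhibitors and feedback brakes, 5 were above 0 and 21 below, with a median log2 fold change of −0.16 (−0.10 under median normalization), and 0 were higher and 4 lower by the paper's thresholds. Dusp1, a phosphatase that switches off MAP kinases, had 12.85, 12.72 and 12.71 on the Nur77-KO arrays and 13.62, 13.86 and 12.99 on the WT arrays (log2 fold change −0.73, SE 0.27, adjusted p = 0.352). Of 19 enzymes and effectors of LPS-treated macrophages, 2 were above 0 and 17 below, with −0.25 as the median, and 3 were lower by the paper's thresholds. Nos2, the inducible nitric oxide synthase, was 1 of the 2 above 0 (0.28, SE 0.29), and without WT replicate 3 its sign turned (−0.08). Slc7a11, the cystine importer, had −0.59 (SE 0.18), and Lcn2, an iron-binding lipocalin, had −1.03 (SE 0.38). Of 29 interferon-stimulated genes, 16 were above 0 and 13 below, with a median of 0.05, and 1 passed the paper's thresholds.

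Of 15 immediate early genes tested, 6 were above 0 and 9 below, and none was called. Fos, a subunit of AP-1, read 9.33, 7.23 and 7.70 on the Nur77-KO arrays, against 9.67, 9.70 and 9.71 on the WT arrays. The WT arrays were nearly equal (SD 0.02), and Nur77-KO replicate 1 lay close below them. The log2 fold change was −1.61 (SE 0.39, limma, adjusted p = 0.142), and −2.22 (adjusted p = 0.0015) without the 2 arrays that stand apart. Fosl2 and Junb, other AP-1 subunits, had log2 fold changes of −0.85 (SE 0.29) and −0.43 (SE 0.17), both without overlap. Egr2, a zinc-finger factor, had 7.03, 8.50 and 8.53 on the Nur77-KO arrays and 7.33, 7.45 and 7.02 on the WT arrays, with Nur77-KO replicate 1 among the WT arrays (0.75, SE 0.29, adjusted p = 0.373, and 1.12, adjusted p = 0.0015, without the 2 arrays). Nr4a2, the NR4A relative Nurr1, had 5.59, 6.35 and 6.31 on the Nur77-KO arrays and 6.78, 5.62 and 7.00 on the WT arrays (−0.38, SE 0.33).

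Of 20 Fc receptor and Rac pathway genes that serve phagocytosis, 2 were above 0 and 18 below (median −0.17), and 3 were lower by the paper's thresholds. Itgam, the CD11b chain of complement receptor 3, read 7.13, 6.58 and 6.87 on the Nur77-KO arrays and 7.54, 7.69 and 7.70 on the WT arrays (log2 fold change −0.79, SE 0.16, adjusted p = 0.079). Fcgr2b, the inhibitory Fcγ receptor, read 13.07, 12.42 and 12.42 on the Nur77-KO arrays and 13.29, 13.22 and 13.29 on the WT arrays (−0.63, SE 0.16, adjusted p = 0.179). Neither gene overlaps between the groups, and both passed without the 2 arrays (adjusted p = 0.0274 for Itgam and 0.0157 for Fcgr2b). Hmox1, the heme-degrading enzyme, missed the threshold narrowly, with 11.15, 10.92 and 10.82 on the Nur77-KO arrays and 11.87, 11.84 and 11.70 on the WT arrays (−0.84, SE 0.17, adjusted p = 0.0719).

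The MHC class II genes present antigen to CD4 T cells and are switched on by the transactivator Ciita. Over the 10 members tested, the median log2 fold change with LPS was 0.04, beside −0.81 without stimulation and −0.65 with IL-4, and none was called with LPS. H2-Eb1, a class II chain, had a log2 fold change of −0.42 (SE 0.18) with LPS and −1.29 (adjusted p = 0.00534) without stimulation. Ciita read 6.53, 8.63 and 8.63 on the Nur77-KO arrays, against 6.19, 6.43 and 5.0 on the WT arrays. Its log2 fold change was 2.06 (SE 0.53, limma, adjusted p = 0.178) with LPS, −1.47 without stimulation and −1.04 with IL-4. Without the 2 arrays that stand apart the difference of the genotype effect between LPS and no stimulation was 3.79 for Ciita (adjusted p = 0.015), against 3.53 (adjusted p = 0.381) with all arrays.

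Genes of the matrix and of stromal cells varied widely between arrays of 1 group, and none was called. Cxcl12, the chemokine SDF-1, had 5.10, 9.21 and 8.99 on the Nur77-KO arrays and 6.68, 6.15 and 4.89 on the WT arrays. Nur77-KO replicate 1 and WT replicate 3 were the low arrays of their groups, and the groups overlap (log2 fold change 1.86, SE 0.91, adjusted p = 0.517). The other probes of Cxcl12 had log2 fold changes of 0.96 (SE 0.60) and 0.08 (SE 0.46). Serping1, the C1 inhibitor of complement, had 6.29, 10.07 and 10.05 on the Nur77-KO arrays and 8.51, 8.47 and 5.22 on the WT arrays, with the same low arrays (1.4, SE 0.95). Of 15 collagen chains 11 were above 0, with a median of 0.48, which became −0.17 without WT replicate 3, and 1 was higher and 2 were lower by the paper's thresholds. Of 28 other matrix and stromal genes 23 were above 0 (median 0.85, 1.92 without Nur77-KO replicate 1, and 0.32 without WT replicate 3), and 1 passed the paper's thresholds. The summed linear intensity of stromal cell markers moved with these genes, at 1390, 14300 and 15000 on Nur77-KO arrays and 7530, 5900 and 1090 on WT arrays. Of its 12 markers 9 were detected on any of the 6 arrays and 2 on all, and Lum, Postn and Thy1 on none. The part of stromal cells in these differences was not tested.

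The summed intensity of neutrophil markers was 13000, 5190 and 5510 on Nur77-KO arrays and 7830, 7770 and 12200 on WT arrays, where Nur77-KO replicate 1 and WT replicate 3 were the high arrays. Lcn2, the brightest of the list, sets much of these sums, and without it they were 7000, 3130 and 3450 on Nur77-KO arrays and 2420, 2130 and 5150 on WT arrays, so that WT replicates 1 and 2 were then the lowest. Of the 12 neutrophil markers with a probe 7 were detected on any array, and Mpo, Prtn3, Ctsg, Cxcr2 and Mmp8 on none. S100a9, a calgranulin of neutrophils and monocytes, had 10.44, 9.09 and 9.19 on the Nur77-KO arrays and 7.65, 7.28 and 9.69 on the WT arrays (log2 fold change 1.36, SE 0.63). Chil3, a chitinase-like protein, had 9.27, 7.69 and 7.76 on the Nur77-KO arrays and 6.30, 6.23 and 7.70 on the WT arrays on its brighter probe (1.50, SE 0.43, adjusted p = 0.225). The groups of both genes overlap through WT replicate 3, and the part of neutrophils was not tested.

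**Figure D4:**
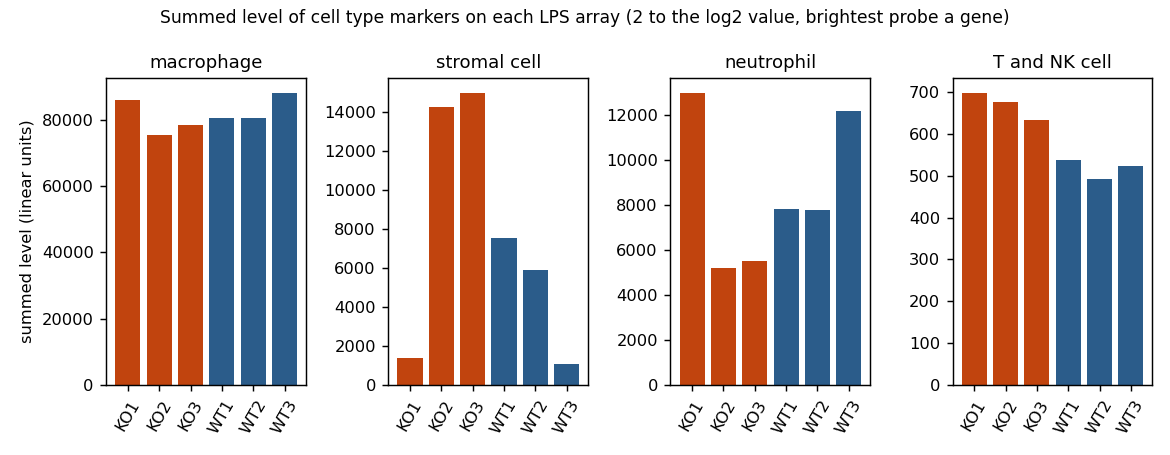
Summed linear intensity of macrophage, stromal cell, neutrophil, and T and NK cell markers on each LPS array, as bars from 0, Nur77-KO arrays left of WT arrays. Nur77-KO replicate 1 and WT replicate 3 are low in stromal markers (1390 and 1090) and high in neutrophil markers (13000 and 12200), while the macrophage sums stay between 75400 and 88200.

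Npy, the gene of neuropeptide Y, had the largest log2 fold change of those named, 4.33, and was not called. It read 5.72, 10.61 and 10.69 on the Nur77-KO arrays and 4.93, 4.57 and 4.52 on the WT arrays, where no array detected it. The groups do not overlap, but Nur77-KO replicate 1 lay far below the other Nur77-KO arrays, and the SE was 1.24 (limma, adjusted p = 0.221). Without the 2 arrays that stand apart the log2 fold change was 5.90 (adjusted p = 0.0242). The Y-linked gene Eif2s3y followed the same pattern, with 4.53, 9.26 and 9.08 on the Nur77-KO arrays and 4.76, 4.53 and 4.68 on the WT arrays, and Xist, which is transcribed from the inactive X chromosome of female cells, had 10.87, 8.99 and 8.93 on the Nur77-KO arrays and 10.71, 10.81 and 10.45 on the WT arrays. Genes that set Nur77-KO replicates 2 and 3 apart from the other arrays, in either direction, vary with the Y-linked signal. Nur77-KO replicate 1 did not show that signal (Eif2s3y 4.53). Values with a Y-linked covariate are given below, and the cause of these differences was not tested.

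Single arrays decided many calls. Over all genes, with 1 probe a gene, 1223 of 9887 (12.4%) had no overlap between the groups, 669 higher and 554 lower in the knockout cells. Without Nur77-KO replicate 1 and WT replicate 3, 271 of the 14721 probes (1.84%) were called, or 187 of 9887 genes (1.89%) with 1 probe a gene. These 271 held 27 of the 30 called with all arrays, and 244 probes (220 genes) were added. In 71 of the 271 the probe was undetected on both remaining arrays of 1 group. The remaining Nur77-KO arrays are the only LPS arrays with Eif2s3y signal, and the remaining WT arrays have none. The remaining Nur77-KO and WT arrays also share no slide. Neither Y-linked signal nor slide can therefore be told apart from genotype for any of the 271 calls. The same holds for other values given without the 2 arrays. The fit then has 2 arrays per group, whose spread is taken to be like that of the other groups. Added genes with large values were BC018473 (2.75, adjusted p = 0.000507), with 9.35, 8.88 and 9.04 on the Nur77-KO arrays and 5.98, 6.44 and 8.4 on the WT arrays, and Fos. The acute LPS cytokine Il6 was also added (−0.90, adjusted p = 0.0227), and Il10 was not (−1.22, adjusted p = 0.133).

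**Figure D5:**
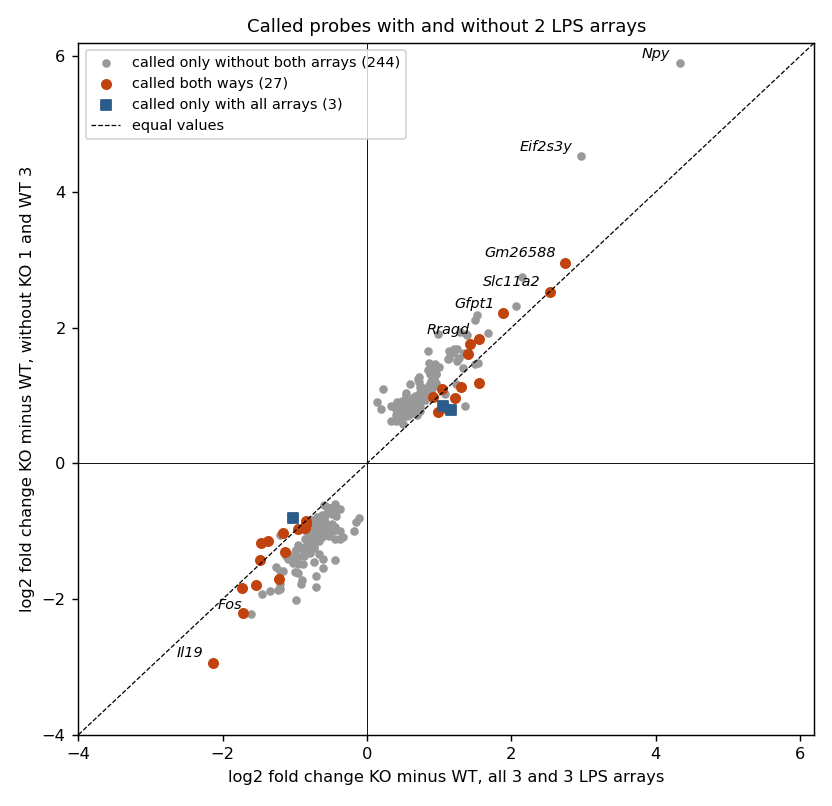
Log2 fold change of Nur77-KO over WT BMM after LPS with all 6 arrays (horizontal axis) and without Nur77-KO replicate 1 and WT replicate 3 (vertical axis) for probes called in either fit, with a dashed line of equal values. The 27 probes called in both, the 3 called only with all arrays and the 244 called only without the 2 arrays are marked apart, and Npy (4.33 and 5.90), Fos (−1.61 and −2.22) and Il19 (−2.14 and −2.94) moved further from 0.

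With all arrays, no probe was called for a difference of the genotype effect between states. Without Nur77-KO replicate 1 and WT replicate 3, the limits on Y-linked signal and slide hold here too. That fit called 27 probes (0.183%) between LPS and no stimulation and 22 (0.149%) between LPS and IL-4. The LPS-dependent cytokine Il19 was among both. Osbpl3, an oxysterol-binding protein, was represented by a pair of probes in both, and its brighter one read 9.34, 10.34 and 10.47 on the Nur77-KO arrays and 9.02, 8.89 and 9.43 on the WT arrays after LPS, with a difference of 1.80 against no stimulation (adjusted p = 0.00735). Egr2 (1.66, adjusted p = 0.00375), Urah (−2.36, adjusted p = 0.0257), Rab38 (1.49, adjusted p = 0.015) and Ms4a4c (−1.60, adjusted p = 0.0167) were further ones. Klra2, an NK-type lectin receptor, had 7.91, 6.02 and 5.28 on the Nur77-KO arrays and 7.33, 7.17 and 7.72 on the WT arrays, so the array left out was the highest of all 6.

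By position, 5 of the 30 genes called (16.7%) lie on chromosome 6, which holds 5.01% of the genes tested, and 3 (10.0%) on chromosome 15, which holds 3.98% and carries Nr4a1 itself (chr15:101253902-101274795, GRCm38.p6). On chromosome 6 these are Anxa4, Gfpt1, Prokr1, Gm26588 and Gdf3, and 4 of them start between 86 and 89 Mb. That window, chosen after the values were seen, holds 29 tested genes, of which 5 (17.2%) passed the paper's thresholds, with 1 probe a gene, against 7.56% of all genes. Mxd1, a repressor of the MYC network in the same window, had 8.50, 9.39 and 9.27 on the Nur77-KO arrays and 7.61, 7.99 and 6.03 on the WT arrays (log2 fold change 1.85, SE 0.46, adjusted p = 0.168), while its dimmer probes had log2 fold changes of −0.80 (SE 0.24) and −0.29 (SE 0.23), in the opposite direction. On chromosome 15 Slc11a2 starts at −0.87 Mb and Pou6f1 at −0.68 Mb from the start of Nr4a1. Within 2 Mb of Nr4a1, 54 genes were tested, of which these 2 were called and 6 (11.1%) passed the paper's thresholds with the brightest probe. No test was made of these positions.

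The promoters of the genes called did not hold the NBRE in its full form. The motif AAAGGTCA was sought on either strand in RefSeq promoter sequences (GRCm38.p6) of 300 bases around each start site. It was found in 0 of the 24 called genes with a promoter in the table, in 10 of 846 genes past the paper's thresholds (1.18%), in 94 of 8044 genes tested (1.17%) and in 460 of all 27025 genes (1.70%). Of the 10 genes with the motif past those thresholds, 2 were higher and 8 lower, some of them on a probe that is not the brightest of its gene. All probes past those thresholds split into 580 higher and 586 lower. The direction of these 10 genes was not tested. The sequences below are 3 of the matches, from genes whose groups did not overlap, with the motif in capitals and read along the strand of the gene.
Itfg2 (chr6:128425001-128425028, minus strand): cctcagagaaAAAGGTCAagccccaggt
Tgif1 (chr17:70850012-70850039, minus strand): aaaaaacccaAAAGGTCAaagactgtga
F9 (chrX:59999447-59999474, plus strand): atctcctaacAAAGGTCAtgaagcacct
These 3 genes were lower in Nur77-KO BMM, and none was called. Tgif1, a homeodomain repressor of TGF-β signalling, read 8.13, 7.42 and 7.84 on the Nur77-KO arrays and 8.16, 8.16 and 8.99 on the WT arrays on a probe that is not the brightest of its gene (log2 fold change −0.64, SE 0.27). Itfg2 and F9, the gene of coagulation factor IX, had log2 fold changes of −0.55 and −0.72.

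The promoter of Cxcl12 holds a form of the motif with a different last base, AAAGGTCT, which the study examined. It is shown because Cxcl12 is the chemokine gene for which that element was studied.
Cxcl12 (chr6:117168365-117168392, plus strand): tgggaagatcAAAGGTCTcagcacccag
The element starts 160 bases before the start site (position −160). This form was found, on either strand, in 0 of the 24 called genes, in 83 of 8044 genes tested (1.03%) and in 334 of 27025 genes (1.24%). The level of Cxcl12 after LPS, with its low arrays, is given above. In the study, mutation of this element weakened the repression of a Cxcl12 promoter reporter by overexpressed Nur77. The study also reported binding of Nur77 to this promoter region in BMM made to overexpress it. For the other promoters counted here, a match shows only that these letters stand in the window.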

How the data were processed

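RNA of 18 BMM samples was hybridised to Illumina MouseWG-6 v2 arrays. The authors deposited, for each of 45281 probes and each array, an intensity averaged over beads and a p-value of detection, both exported from GenomeStudio 2011.1. The authors also deposited a table of log2 values, which they obtained by correcting the background, normalizing by quantiles and taking log2 (the submitters' processing notes name R 2.14.0 and limma 3.10.2). These log2 values were used here, and background correction and normalization of the intensities again (neqc, offset 16) gave a largest difference of 0.173 from them. Of the probes, 34885 carry 1 gene symbol in the platform annotation (34807 of them matched to a RefSeq gene by gene ID), 18 carry several and 10378 are not listed, and only those with 1 symbol were used. The fold changes of dim genes depend on the background correction. With LPS, 1166 probes passed the paper's thresholds here, 548 with an offset of 50 and 216 without background correction.

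A mean per group was fitted to all 18 arrays with limma 3.58.1 in R 4.3.3 (12 residual degrees of freedom, empirical Bayes), so that all groups share 1 estimate of the spread of a probe, and two-sided p-values were adjusted by Benjamini-Hochberg over the 14721 probes detected on at least 1 LPS array. The number of arrays limits the precision. In the gene lists, each gene stands with its probe of highest mean on the LPS arrays. The replicate numbers were not taken to pair the arrays. Positions and promoters are those of RefSeq, GRCm38.p6.

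The genes named are every gene called, the 10 largest fold changes each way past the paper's thresholds without overlap, up to 4 members of each of the 28 function and 10 marker lists, genes that the paper names, and genes called for a difference between states or only without the 2 arrays that stand apart; the text gives a selection of these, made after the values were seen. Tmem181a, Tia1, Mxd1, Osbpl3, Mgll and the genes with a promoter match were likewise picked after their values were seen. The lists were chosen with earlier results of these data known. Alternatives were other background correction, normalization, filters and designs, slide or replicate as a block, a Y-linked covariate, and arrays left out. No comparison column of the authors was used. A further promoter match is not reported here.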

Additional observations from a re-analysis of the deposited data

How the results depend on the processing

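All 30 called genes kept their direction under every alternative tried. Where arrays were left out, and within 1 slide, this was given in advance, since the groups of all 30 do not overlap. Other filters, the fit of only the 6 LPS arrays and the replicate block leave the fold change of a probe as it was. The kept direction is therefore no check in those alternatives. Of 678 values, 402 counted as unchanged and 264 were not called. Unchanged means still called or, for the untested difference within 1 slide, within 1 SD of the value with all arrays. The other 12 values were differences within 1 slide that moved by 1 SD or more. The count of 30 became 2 under median normalization, 6 under cyclic loess, 0 in a fit of only the 6 LPS arrays (930 at unadjusted p under 0.05, limma), 0 with slide as a fixed block (1709), 21 with the Y-linked covariate (14 higher, 7 lower, 15 of them among the 30) and 271 without both arrays that stand apart. Leaving out 1 array gave 14 to 257 calls, with 257 without Nur77-KO replicate 1, 71 without WT replicate 3, 17 without WT replicate 1, and 16 and 14 without Nur77-KO replicates 2 and 3. The cause was not tested. The 1166 probes past the paper's thresholds became 216 without background correction, 548 with an offset of 50, 170 under median normalization and 744 with 1 probe per gene, and 952 to 1766 with 1 array left out. Genes without overlap rose to 5272 without both arrays, by construction of the smaller groups. The difference between LPS and no stimulation (0 calls) gave 1 call with no filter on dim probes, 1 with probes detected on any of the 18 arrays, 3 with the Y-linked covariate, 27 without both arrays and 0 to 14 with 1 array left out. The difference between LPS and IL-4 (0 calls) gave 22 without both arrays and 0 to 10 with 1 left out. The NBRE share of 0% was 1.18% at the paper's thresholds.

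Of 1169 values of the other genes examined, 8 were counted as changing sign. That count does not cover sign changes in the difference within 1 slide. There, for instance, Il6 was higher and S100a9 lower on the Nur77-KO array. With the Y-linked covariate the log2 fold changes were −0.39 for Ccn1, −0.25 for Col1a1, −0.08 for Cxcl12, 0.20 for Il1b, 0.20 for Pde4b and −0.39 for Serping1. Nos2 ranged from −0.08 to 0.50 with 1 array left out, and Nr4a2 was 0.13 without both arrays. Only 1 slide held both groups (replicate 3 of each), which gives a value without a test. With the replicate number as a block 26 probes were called, 24 of them among the 30. Same-numbered LPS arrays deviated from their group means with correlations of −0.293, 0.278 and −0.187, so the numbers were not taken to pair them, although over all 18 arrays 11 correlated best with their own number. Signal over background limits the dim probes: 17 of the 30 were undetected throughout 1 group.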

Other observations

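Several genes outside the comparisons above had non-overlapping groups after LPS without passing adjustment, and are given as values chosen after they were seen. Ccl8, a chemokine for monocytes, read 10.99, 11.57 and 11.79 on the Nur77-KO arrays and 10.52, 10.65 and 10.24 on the WT arrays (limma log2 fold change 0.98, SE 0.32, adjusted p = 0.262), beside 1.44 without stimulation. Mertk, the receptor by which macrophages take up dying cells, read 10.68, 11.29 and 11.10 on the Nur77-KO arrays and 10.21, 10.25 and 10.30 on the WT arrays (0.77, SE 0.21, adjusted p = 0.19). Tfrc, the transferrin receptor, read 9.61, 9.99 and 9.90 on the Nur77-KO arrays and 9.23, 9.28 and 9.54 on the WT arrays (0.48, SE 0.14, adjusted p = 0.221), and without stimulation it was called (0.78, adjusted p = 0.0371).

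On the lower side, Il16, a chemoattractant cytokine for CD4 cells, read 6.24, 4.85 and 4.83 on the Nur77-KO arrays and 6.71, 6.61 and 6.75 on the WT arrays (−1.38, SE 0.47, adjusted p = 0.291). Creb3l4, a membrane-bound transcription factor of the endoplasmic reticulum, read 4.88, 4.81 and 5.20 in Nur77-KO BMM, where no array detected it, and 6.27, 6.52 and 6.09 in WT BMM (−1.33, SE 0.31, adjusted p = 0.12). Ankrd37, a hypoxia-inducible gene, read 5.44, 5.11 and 5.10 in Nur77-KO BMM, again undetected, and 6.58, 6.38 and 6.65 in WT BMM (−1.32, SE 0.34, adjusted p = 0.178). Among whole groups, 18 chemokines (median log2 fold change 0.02), 18 Toll-like receptor pathway genes (−0.01), 19 citric acid cycle and respiratory genes (−0.04) and 21 glycolysis and hypoxia genes (−0.05) had no member called and medians close to that of all genes (0.01).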
